A study of Arabidopsis thaliana with 9 samples.

Results

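The question was which transcripts of sorted Arabidopsis root cells went on changing between 1 h and 4 h after the transcription factor PLT2 was released into the nucleus. The comparison rests on 6 of the 9 arrays in the series, chosen by their titles: 3 arrays of root tips induced for 4 h and 3 of root tips induced for 1 h. All 21430 loci measured on the arrays entered it. The remaining 3 arrays were mock-treated and served to estimate the spread and to give each gene's starting level.

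All 3 groups came from one genotype, the plt1 plt2 double mutant of Arabidopsis thaliana. Under the PLT2 promoter it carried PLT2-GR, in which PLT2 is joined to the glucocorticoid receptor and which complements the mutant, together with a green fluorescent reporter under the WOX5 promoter. At 5 days after germination, seedlings were moved to medium with 10 µM dexamethasone in DMSO for 1 h or for 4 h, and mock seedlings to medium with DMSO for 1 h. Cut root tips were digested for 1 h to single cells, and fluorescent cells were sorted as quiescent centre (QC) cells. Mock arrays exist for 1 h only, and no plants without the fusion were treated, so an effect of PLT2-GR, of dexamethasone itself and of 3 more hours on new medium cannot be told apart between the induced groups. The labels call the arrays biological replicates, without saying from which plants they came, so p-values here speak of array-to-array spread alone.

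PLETHORA proteins such as PLT2 are AP2-domain transcription factors that form a gradient in the root tip, highest at the stem cell niche. High levels maintain stem cells, intermediate levels go with cell division in the meristem, and low levels permit cells to elongate and differentiate. The QC is the small group of rarely dividing cells at the centre of the niche. A fusion to the glucocorticoid receptor stays in the cytoplasm until dexamethasone binds it.

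WOX5, whose promoter marked the sorted cells, was not among the loci analysed here, so the cell type was set against other niche genes. SCR, a transcription factor of the QC and endodermis, had log2 levels of 8.72, 8.80 and 8.62 at 1 h and 8.83, 8.66 and 8.66 at 4 h (replicates 1, 2 and 3, here and below). AGL42, often used as a QC marker, had 2.65, 2.70 and 2.90 at 1 h and 2.99, 2.83 and 2.83 at 4 h. SCR therefore lay well above the array medians, which ranged from 5.73 to 5.78, whereas AGL42 lay below the lower quartiles, which ranged from 3.55 to 3.63. These levels alone do not establish that the sorted cells were QC cells. PLT2 had levels of 9.14, 8.84 and 8.79 at 1 h and 8.27, 8.93 and 8.48 at 4 h. The groups overlapped, and the difference of -0.36 ± 0.16 (95% interval -0.71 to -0.02, limma adjusted p = 0.219) did not pass the test. PLT1 differed by 0.09 ± 0.09 (95% interval -0.11 to 0.28). The stretch of PLT2 that the probe set reads was not given in the sources used here, and signal of the fusion and of the mutated gene cannot be told apart.

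Values are log2 expression levels, on which a difference of 1 is a 2-fold change. A locus was called when its limma p, adjusted over all 21430 loci by the Benjamini-Hochberg method, was under 0.05. Errors after ± are standard errors of the fitted log2 fold change, 4 h minus 1 h. In such bulk samples of sorted cells, fewer cells of a type and less RNA per cell cannot be told apart.

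Of the 21430 loci, 397 (1.85%) were called, 190 (0.887%) higher and 207 (0.966%) lower at 4 h. The falls were larger than the rises. The median log2 fold change was 0.51 among called rises and -0.63 among called falls, and 30 falls but only 6 rises reached a 2-fold change. For every one of these 397 loci the 3 arrays at 4 h lay all above or all below the 3 at 1 h. Over all loci, called or not, such separation was common: 11.7% had all 4 h arrays above and 10.1% all below.

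The number of calls hung on single arrays. Many called loci sat close to the threshold, with 171 of 397 at an adjusted p of 0.04 to 0.05 and 19 under 0.02. Leaving out 4 h replicate 3 raised the calls to 1202 higher and 1606 lower. Leaving out any other array lowered them, to between 1 and 43 higher and between 2 and 39 lower. Among the called rises, the 4 h replicates 1, 2 and 3 lay a median of 0.61, 0.50 and 0.45 above the 1 h mean, and among the called falls they lay at -0.72, -0.69 and -0.46. Replicate 3 at 4 h was thus the nearest of the 3 to the 1 h arrays for 113 of 190 rises and 152 of 207 falls. Fitted on the 1 h and 4 h arrays alone, limma called 4 loci: MLS higher and EXPA10, ARF19 and GGCT2;1 lower. EXPA10, ARF19 and MLS were also the 3 loci called without any 1 of the 9 arrays.

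**Figure D1:**
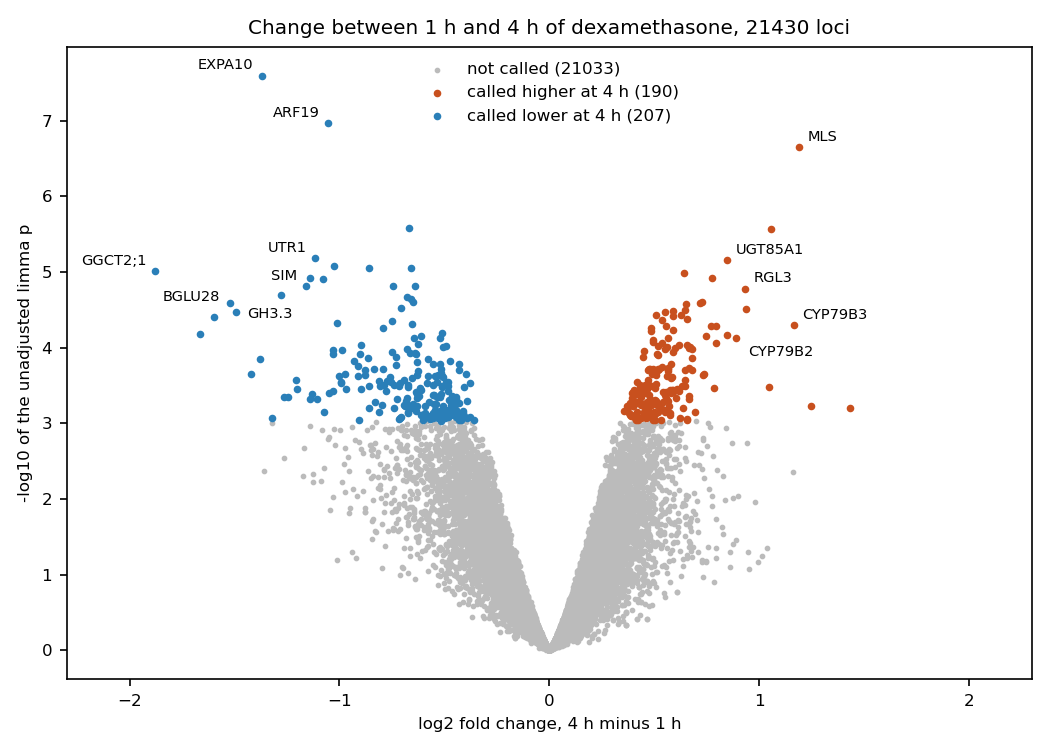
Log2 fold change of each of the 21430 loci from 1 h to 4 h (x axis) against the negative log10 of its unadjusted limma p (y axis). Orange points are the 190 loci called higher and blue points the 207 called lower; EXPA10, ARF19 and MLS lie highest.

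**Figure D2:**
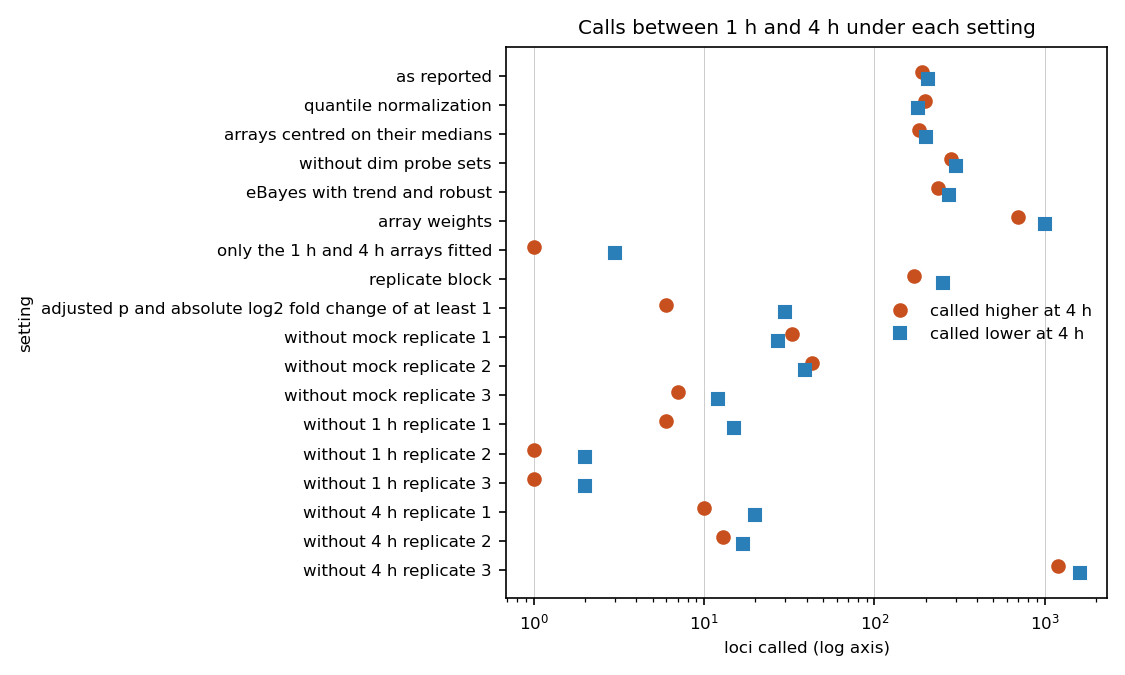
Loci called higher (orange circles) and lower (blue squares) at 4 h under each setting of the fit, on a log axis. Counts fall to 1 and 2 without 1 h replicate 2 or 3 and rise to 1202 and 1606 without 4 h replicate 3.

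EXPA10 (AT1G26770), an alpha-expansin that loosens cell walls, had the smallest p of all loci. Its levels were 8.30, 8.46 and 8.26 at 1 h and 7.07, 6.90 and 6.94 at 4 h. All arrays at 4 h lay more than 1 log2 unit below all arrays at 1 h, and the fall was 1.37 ± 0.09 (2.58-fold, limma adjusted p = 0.000548). In mock the levels were 8.57, 8.35 and 8.43, so that 1 h and mock differed by only -0.11.

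ARF19 (AT1G19220), an auxin response factor that activates auxin-responsive genes, had levels of 5.89, 5.98 and 5.86 at 1 h and 4.83, 4.88 and 4.87 at 4 h. The groups were far apart and the 4 h arrays nearly equal. ARF19 fell by 1.05 ± 0.08 (2.07-fold, limma adjusted p = 0.00115), after a difference of -0.15 between 1 h and mock.

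MLS (AT5G03860), the malate synthase of the glyoxylate cycle, had levels of 7.18, 7.14 and 7.02 at 1 h and 8.47, 8.16 and 8.29 at 4 h. It rose by 1.19 ± 0.10 (2.28-fold, limma adjusted p = 0.00162). The first hour had already brought a difference of 1.16 over mock (limma adjusted p = 0.0021), so the steps of the time course were nearly equal. ICL, the isocitrate lyase that acts before MLS in the same cycle, had a difference of 0.49 ± 0.17 (limma adjusted p = 0.137). Of the 18 measured genes of the glyoxylate cycle and peroxisomal beta-oxidation, 1 was called, namely MLS, against 1.85% of all loci. The median difference was -0.01 against 0.02 over all loci.

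CYP79B3 (AT2G22330) and CYP79B2 (AT4G39950) encode the cytochrome P450 enzymes that turn tryptophan into indole-3-acetaldoxime, a precursor of indole glucosinolates. CYP79B3 had 6.82, 6.82 and 6.86 at 1 h and 8.45, 7.65 and 7.89 at 4 h, and rose by 1.17 ± 0.18 (limma adjusted p = 0.0243). CYP79B2 had 9.23, 9.14 and 9.23 at 1 h and 10.25, 9.85 and 10.16 at 4 h, and rose by 0.89 ± 0.14 (limma adjusted p = 0.0275). For both genes the 1 h arrays were nearly equal, and the 4 h arrays lay above them with more spread. CYP79B3 had the same deposited value on 1 h replicates 1 and 2 (6.81633), and CYP79B2 on 1 h replicates 1 and 3 (9.22831). Other loci had such ties as well, and their origin was not tested. The small spread at 1 h is therefore not taken as close agreement of replicates. The 1 h arrays in turn lay above mock by 1.42 for CYP79B3 and by 1.23 for CYP79B2. UGT85A1 (AT1G22400), a glycosyltransferase that acts on cytokinins, had 7.39, 7.27 and 7.27 at 1 h and 8.13, 8.37 and 7.97 at 4 h, and rose by 0.85 ± 0.10. Its difference between 1 h and mock was 0.32. AT4G28410, for which RefSeq lists the synonym RSA1, had 6.96 on each 1 h array and 8.18, 8.09 and 7.78 at 4 h, a rise of 1.06 ± 0.12 (limma adjusted p = 0.0118). Here too 1 h replicates 1 and 2 had the same deposited value (6.95508).

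The largest rises by size, AT3G48460 and its measured neighbour AT3G48450, were uneven across arrays. AT3G48460 had 6.69, 5.97 and 5.80 at 1 h and 8.03, 7.85 and 6.88 at 4 h, and AT3G48450 had 4.82, 4.33 and 3.99 at 1 h and 6.04, 5.82 and 5.03 at 4 h. In both loci replicate 1 was the highest array of each time and replicate 3 the lowest, so that the times barely separated. OEP16-1, a channel of the outer plastid envelope, rose by 1.05 ± 0.20, and 4 h replicate 1 (8.33) stood above replicates 2 and 3 (7.62 and 7.45). BAP2, an inhibitor of cell death, rose by 0.85 ± 0.13, from 6.06, 6.13 and 5.59 to 6.82, 6.76 and 6.75. YLS5 rose by 0.80 ± 0.13, AT1G03270 by 0.94 ± 0.13 and scpl50, a serine carboxypeptidase-like gene, by 0.64 ± 0.08. AT3G48460, AT3G48450 and OEP16-1 were still called without 4 h replicate 3 but not without any other single array.

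**Figure D3:**
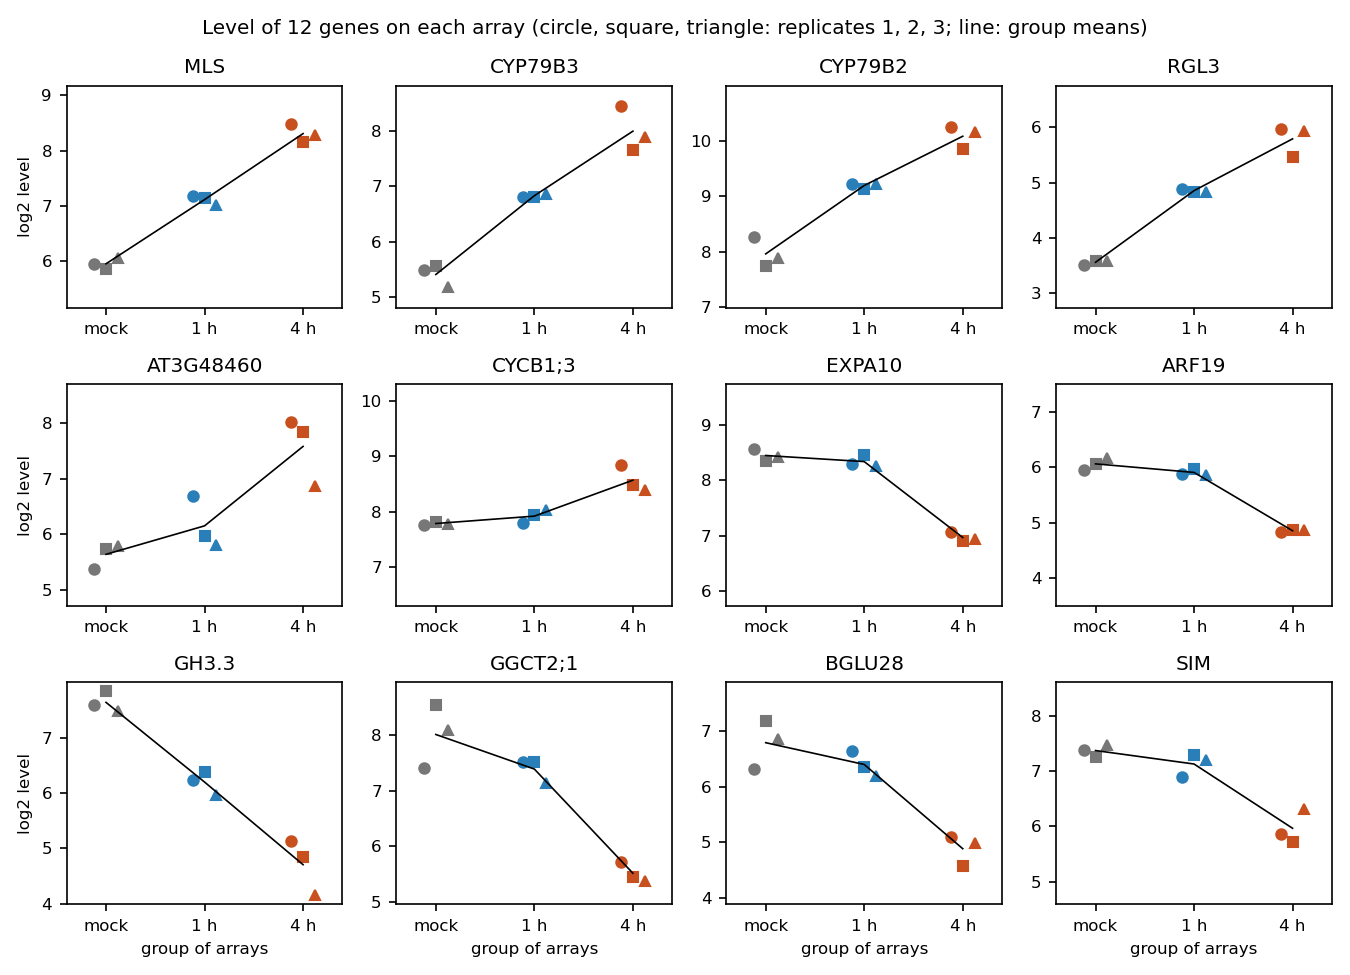
Log2 level (y axis) of 12 genes on each array of mock, 1 h and 4 h (x axis), with circles, squares and triangles for replicates 1, 2 and 3 and a line through the group means; every panel spans 4 log2 units. MLS, CYP79B3, CYP79B2, RGL3 and GH3.3 moved the same way in both steps, while EXPA10 and ARF19 lay near the mock level at 1 h.

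The largest falls included genes of glutathione and glucosinolate breakdown that are known to be induced when plants lack sulfur. GGCT2;1 (AT5G26220), a gamma-glutamyl cyclotransferase that degrades glutathione, had 7.52, 7.52 and 7.14 at 1 h and 5.72, 5.45 and 5.37 at 4 h. BGLU28 (AT2G44460), a beta-glucosidase, had 6.65, 6.36 and 6.20 at 1 h and 5.10, 4.57 and 4.98 at 4 h. The times did not overlap for either gene. GGCT2;1 fell by 1.88 ± 0.24 (3.68-fold, limma adjusted p = 0.018) and BGLU28 fell by 1.52 ± 0.21 (2.87-fold, limma adjusted p = 0.0212). Of 20 measured genes of sulfur deficiency and sulfate assimilation, these 2 were called lower and none higher, against 0.966% and 0.887% of all loci. The median difference of the list was -0.16. The root sulfate uptake transporter SULTR1;2 had a difference of -0.83 ± 0.20 (limma adjusted p = 0.063), with all 4 h arrays (9.27, 9.75 and 9.34) below all 1 h arrays (10.35, 10.31 and 10.20). The kinase APK2, which provides activated sulfate, went the other way by 0.54 ± 0.16 without passing the test (limma adjusted p = 0.103). The mock arrays of GGCT2;1 were spread, at 7.41, 8.54 and 8.09, and replicate 1 was also the lowest mock array for BGLU28 (6.33, against 7.19 and 6.87).

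GH3.3 (AT2G23170), an auxin-induced gene whose enzyme joins auxin to amino acids, had 7.58, 7.84 and 7.49 in mock, 6.24, 6.38 and 5.96 at 1 h and 5.12, 4.84 and 4.15 at 4 h. No array of one group overlapped another group. It fell by 1.49 ± 0.22 from 1 h to 4 h (limma adjusted p = 0.0222), about as much as the 1.44 by which 1 h lay below mock. GH3.3 was the only called gene among 19 measured genes of auxin conjugation and response, whose median difference was -0.06. Over all loci 1.85% were called in either direction. GH3.1 differed by -0.40 ± 0.13 and the Aux/IAA repressor IAA4 by -0.59 ± 0.21, and neither passed the test. None of 26 measured genes of auxin synthesis and transport was called in either direction. Here PIN3, an efflux carrier, differed by -0.58 ± 0.15 (limma adjusted p = 0.0736), its 4 h arrays (6.34, 6.01 and 6.59) all lying below its 1 h arrays (6.64, 6.99 and 7.05). YUC7, an auxin synthesis gene, differed by 0.48 ± 0.13 from low levels of 3.92, 3.71 and 4.07.

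Several falls concerned loci for enzymes and proteins of the cell wall and of transport. MAN7, an endo-beta-mannanase, fell by 1.25 ± 0.25, and RCI3, a peroxidase, by 1.32 ± 0.29. In both, 4 h replicate 3 (7.18 for MAN7, 8.87 for RCI3) lay closer to the 1 h arrays than replicates 1 and 2 did (6.24 and 5.96, and 7.81 and 7.96). UTR1 (AT2G02810), which carries UDP-galactose and UDP-glucose across internal membranes, had 8.14, 8.32 and 8.41 at 1 h and 7.03, 6.98 and 7.51 at 4 h, and fell by 1.12 ± 0.14 (limma adjusted p = 0.018). Its 1 h and mock means were equal to within 0.01. The remaining loci of the largest falls carry no gene name in RefSeq. AT1G78020 fell by 1.66 ± 0.26, AT5G62330 by 1.60 ± 0.24, AT5G06270 by 1.42 ± 0.26 and AT2G41810 by 1.38 ± 0.24. AT1G57590 fell by 1.28 ± 0.18, AT1G61840 by 1.26 ± 0.25 and AT3G58540, among the falls with the smallest p, by 0.67 ± 0.07.

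Of 22 measured members of the expansin family, 4 were called lower (EXPA10, EXPA1, EXPA8 and EXPA17) and 1 higher, against 0.966% and 0.887% of all loci, and 17 were not called. Differences below 0 were found in 14 members and above 0 in 8. The family's median of -0.09 hung on single arrays, at -0.01 without 4 h replicate 1, -0.14 without 1 h replicate 3 and -0.21 without 4 h replicate 3. EXPA8 had 7.72, 8.03 and 7.98 at 1 h and 6.54, 6.80 and 7.42 at 4 h, a fall of 0.99 ± 0.19 (limma adjusted p = 0.0388). EXPA1 fell by 0.79 ± 0.14, from 7.64, 8.02 and 7.82 to 6.80, 6.98 and 7.31. EXPA17, named here because it completes the called members, fell by 0.99 ± 0.19. For EXPA1, EXPA8 and EXPA17, 4 h replicate 3 was the array nearest to 1 h. EXPA1 and EXPA8 lost the call when any 1 array other than 4 h replicate 3 was left out. EXPA11 showed a difference of similar size, -1.08 ± 0.25, but did not pass the test (limma adjusted p = 0.0537, 95% interval -1.63 to -0.53). The expansin-like gene EXLA2 rose by 0.58 ± 0.10, with no overlap between the times. None of the 21 measured XTH genes, which cut and rejoin xyloglucan, was called, and XTH5 came closest at -0.53 ± 0.14 (limma adjusted p = 0.0682).

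Mitotic genes were higher at 4 h. All 20 measured genes of the G2/M list, which holds mitotic cyclins, kinases and spindle and cytokinesis genes, had a difference above 0, and 6 of them were called higher, against 0.887% of all loci. Their median was 0.43, against 0.02 over all loci, and 18 of the 20 had 4 h arrays all above the 1 h arrays, against 11.7% of all loci. CYCB1;3 had 7.79, 7.94 and 8.02 at 1 h and 8.83, 8.48 and 8.39 at 4 h, a rise of 0.65 ± 0.12 (limma adjusted p = 0.0349). MAD2, of the spindle checkpoint, rose by 0.63 ± 0.12, CYCB1;1, a cyclin that peaks at the entry to mitosis, by 0.62 ± 0.12 and KN (KNOLLE), the syntaxin of the cell plate, by 0.54 ± 0.11. The other called members, AUR3 at 0.66 ± 0.13 and CDKB2;1 at 0.47 ± 0.10, complete the 6. Over the list, 4 h replicates 1, 2 and 3 lay a median of 0.68, 0.37 and 0.28 above the 1 h mean, so replicate 1 stood highest. CYCB1;3, MAD2, CYCB1;1 and KN each lost the call when any 1 array other than 4 h replicate 3 was left out. Without 4 h replicate 1, the median was 0.35 and all 20 differences stayed above 0. For the 18 without overlap the sign could not have changed.

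Of the genes of G1/S and DNA replication, 0 of 22 measured were called higher and 1 lower, against 0.887% and 0.966% of all loci. Their median was 0.13. The called gene was CDT1A, which licenses replication origins, with 7.13, 7.38 and 7.28 at 1 h and 6.84, 6.80 and 6.70 at 4 h and a fall of 0.48 ± 0.09. CDT1A lost the call when any 1 array other than 4 h replicate 3 was left out. Its partner in licensing, CDC6, differed by -0.26 ± 0.10 (limma adjusted p = 0.154), while RNR1, the large subunit of ribonucleotide reductase, differed by 0.44 ± 0.12 (limma adjusted p = 0.0819). Among 9 measured D-type cyclins, which drive entry into the cycle, CYCD4;1 fell by 0.68 ± 0.11 and none was called higher. CYCD3;1 differed by -0.47 ± 0.16 (limma adjusted p = 0.138).

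In the list of inhibitors of cyclin-dependent kinases and activators of endoreduplication, 2 of 15 measured genes were called lower and none higher. Over all loci 0.966% were called lower and 0.887% higher. SIM (AT5G04470), an inhibitor that promotes endoreduplication, had 6.89, 7.29 and 7.20 at 1 h and 5.87, 5.72 and 6.31 at 4 h, and fell by 1.16 ± 0.15 (2.23-fold, limma adjusted p = 0.0185). CCS52A1 is an activator of the anaphase-promoting complex that goes with the switch to endoreduplication and cell elongation. It had 5.98, 6.22 and 6.11 at 1 h and 4.97, 4.99 and 5.64 at 4 h, and fell by 0.91 ± 0.17 (limma adjusted p = 0.0362). The call of CCS52A1 was lost when any 1 array other than 4 h replicate 3 was left out. The SIM relative SMR1 differed by -1.02 ± 0.25 (limma adjusted p = 0.0635, 95% interval -1.57 to -0.47), with 4 h arrays at 5.84, 5.12 and 6.35 and 1 h arrays at 6.70, 6.79 and 6.87. The members from AT3G50630 at -0.10 to AT2G32710 at 0.48 made up the rest of the list, whose median was 0.07. AT2G32710, which RefSeq lists as KIP-RELATED PROTEIN 4, differed by 0.48 ± 0.14 (limma adjusted p = 0.0857).

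Ribosome biogenesis genes, for RNA polymerase I and for processing of ribosomal RNA, all had a difference above 0: 30 of 30 measured, from 0.12 to 0.72 with a median of 0.36. Of these, 5 were called higher and none lower, and 28 had 4 h arrays all above the 1 h arrays; over all loci 0.887% were called higher and 11.7% had such arrays. RRP5 had 8.59, 8.49 and 8.57 at 1 h and 9.09, 9.09 and 8.89 at 4 h, a rise of 0.47 ± 0.08 (limma adjusted p = 0.0349). APUM24 and the methyltransferase gene RID2 rose by 0.47 ± 0.09 and 0.48 ± 0.09, and the 2 large subunits of RNA polymerase I, NRPA2 and NRPA1, by 0.47 ± 0.09 and 0.53 ± 0.11. RRP5, APUM24, RID2 and NRPA2 each lost the call when any 1 array other than 4 h replicate 3 was left out. TOZ, which is needed for processing of ribosomal RNA, missed the threshold at 0.54 ± 0.12 (limma adjusted p = 0.051), as did AT5G15550 at 0.40 ± 0.09 (limma adjusted p = 0.0511). Over the list the 4 h replicates lay 0.43, 0.30 and 0.29 above the 1 h mean and the mock replicates at -0.13, -0.25 and -0.09. With quantile normalization and with centring on array medians the list's median was 0.37 and 0.35, without 4 h replicate 1 it was 0.28, and in each case all 30 differences were above 0. For the 28 without overlap, leaving out an array could not have changed the sign.

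The genes of indole glucosinolate synthesis had a median of 0.22. Of 17 measured, 3 were called higher and none lower, against 0.887% and 0.966% of all loci. Beside CYP79B2 and CYP79B3, the third was GSTF9, a glutathione transferase, with 12.33, 12.28 and 12.43 at 1 h and 13.40, 12.98 and 12.98 at 4 h and a rise of 0.77 ± 0.12. CYP83B1, which acts after CYP79B2 and CYP79B3, differed by 0.73 ± 0.20 (limma adjusted p = 0.0801, 95% interval 0.29 to 1.17). CYP81F2, which modifies the finished indole glucosinolates, differed by 0.25 ± 0.12. In the shikimate and tryptophan pathway, which supplies their precursor, 1 of 11 measured genes was called and 10 had a difference above 0, with a median of 0.32. The called gene, SK2 for a shikimate kinase, had 6.91, 6.93 and 6.94 at 1 h and 7.98, 7.61 and 7.39 at 4 h, and rose by 0.73 ± 0.13 (limma adjusted p = 0.0362). SK2 lost the call when any 1 array other than 4 h replicate 3 was left out. ASA1, for the first committed step towards tryptophan, differed by 0.46 ± 0.13 (limma adjusted p = 0.0843). None of 10 measured genes of aliphatic glucosinolates, which come from methionine, was called, and their median was 0.09.

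**Figure D4:**
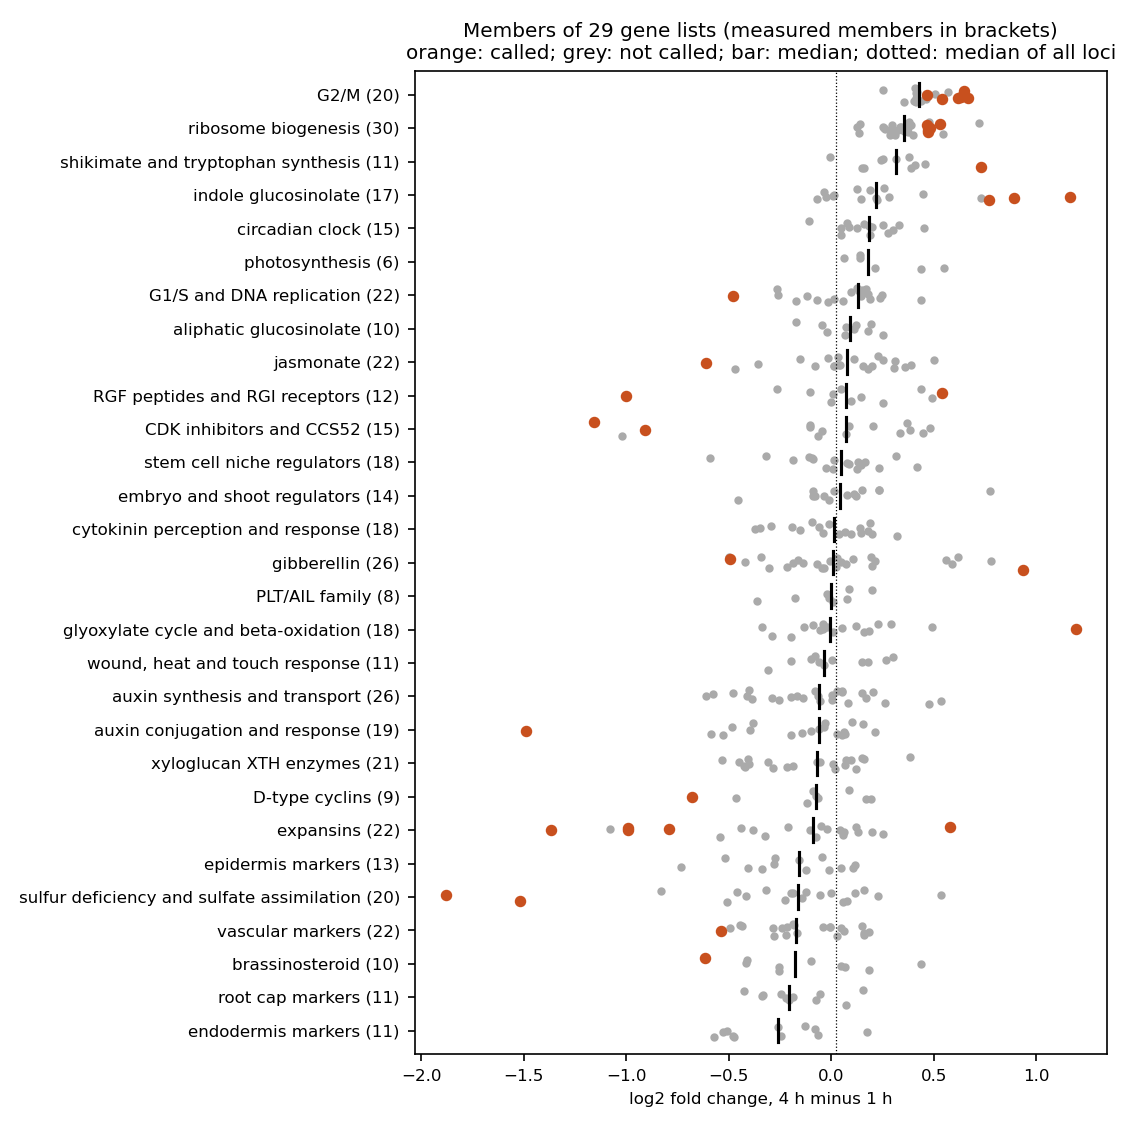
Log2 fold change from 1 h to 4 h (x axis) of the measured members of 29 gene lists (y axis), with called members in orange, the others in grey, a bar at each list's median and a dotted line at the median of all loci. The medians range from -0.26 for endodermis markers to 0.43 for G2/M genes.

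Lists of the other hormones held at most 2 called genes each, and 1.85% of all loci were called. RGL3 (AT5G17490), a DELLA repressor of gibberellin responses, had 4.89, 4.84 and 4.84 at 1 h and 5.97, 5.46 and 5.94 at 4 h, and rose by 0.93 ± 0.13 (limma adjusted p = 0.0188). All its 4 h arrays lay above its 1 h arrays, which lay 1.29 above mock. The deposited values of RGL3 on 1 h replicates 2 and 3 were the same (4.83718). GASA4, a gibberellin-regulated peptide, fell by 0.49 ± 0.09 from high levels of 12.96, 13.10 and 12.99. These were the 2 called genes among 26 measured in the gibberellin list, whose median was 0.01. GASA14, another member of that peptide family, differed by 0.78 ± 0.20 (limma adjusted p = 0.0695, 95% interval 0.34 to 1.22), and KO, for ent-kaurene oxidase of gibberellin synthesis, by 0.62 ± 0.15 (limma adjusted p = 0.0604).

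In the brassinosteroid list 1 of 10 measured genes was called: DWF4, a rate-limiting enzyme of brassinosteroid synthesis, had 6.36, 6.58 and 6.36 at 1 h and 5.87, 5.72 and 5.86 at 4 h, and fell by 0.62 ± 0.12 (limma adjusted p = 0.0388). CPD, another enzyme of that pathway, differed by -0.42 ± 0.09 (limma adjusted p = 0.0528), with no overlap between the times, and ROT3 by 0.44 ± 0.12 in the opposite direction. In the jasmonate list 1 of 22 was called, AOC4 for an allene oxide cyclase of jasmonate synthesis, at -0.61 ± 0.10 (limma adjusted p = 0.0275). COI1, the jasmonate receptor, differed by -0.47 ± 0.15 without passing the test. Most of the jasmonate list went the other way: 16 of the 22 had a difference above 0, and the median was 0.08. Of 18 measured genes of cytokinin perception and response none was called, and their median was 0.01. ARR6, a response gene, differed by 0.32 ± 0.13 and ARR1, a transcription factor of the pathway, by -0.35 ± 0.15.

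The list of root meristem growth factors (RGF peptides) and their receptor kinases had 12 measured members, 1 called in each direction. Over all loci 0.887% were called higher and 0.966% lower. The locus AT1G34110 had 7.73, 7.60 and 7.61 at 1 h and 8.20, 8.16 and 8.20 at 4 h, and rose by 0.54 ± 0.08 (limma adjusted p = 0.0236). Its mock levels were 7.09, 7.03 and 6.92, so that every group was separate from the others. AT5G56040, which RefSeq lists as SKM2, had 8.26, 8.52 and 8.23 at 1 h and 7.04, 7.12 and 7.84 at 4 h, and fell by 1.00 ± 0.18 (limma adjusted p = 0.0362). AT5G48940 differed by 0.49 ± 0.12 (limma adjusted p = 0.0636) and AT4G26540 by 0.25 ± 0.09, neither passing the test.

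Regulators of the stem cell niche and their relatives did not pass the test. Only 1.85% of all loci passed it, so lists this short can hold none without differing from the rest. None of 18 measured niche regulators was called, with a median of 0.04. The nearest to the threshold was UPB1, a transcription factor of the balance between division and differentiation, at -0.59 ± 0.16 (limma adjusted p = 0.0777), where 1 h replicate 1 (7.54) overlapped the 4 h arrays (7.24, 7.12 and 7.56). TMO7, a mobile transcription factor of the embryonic root, differed by 0.23 ± 0.10. In the PLETHORA family none of 8 was called, and ANT differed by -0.18 ± 0.12. In the list of embryo and shoot regulators none of 14 was called, though CUC2 differed by 0.78 ± 0.24 (limma adjusted p = 0.111), with 4 h arrays at 5.83, 5.96 and 5.00 and 1 h arrays at 5.11, 4.59 and 4.77.

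Markers of other cell types were somewhat lower at 4 h than at 1 h. Differences below 0 were found in 9 of 11 root cap markers, 10 of 13 epidermis markers, 10 of 11 endodermis markers and 15 of 22 vascular markers. The medians of these lists were -0.21, -0.16, -0.26 and -0.17, against 0.02 over all loci. They stayed below 0 without any 1 array, but their size moved. The root cap median was -0.07, -0.11, -0.12 and -0.13 without 4 h replicate 2, 1 h replicate 3, 1 h replicate 2 and 4 h replicate 1, and -0.38 without 1 h replicate 1. The epidermis median was -0.09 and -0.11 without 4 h replicate 1 and 1 h replicate 3, and -0.24 and -0.30 without 1 h replicate 2 and 4 h replicate 3. The vascular median was -0.06 and -0.10 without 4 h replicate 2 and 1 h replicate 2, and the endodermis median was -0.17 without 4 h replicate 1. TMO5, a vascular transcription factor that fell by 0.54 ± 0.11, was the only called marker in these 4 lists. Over all loci 1.85% were called. The summed signal of the endodermis list ranged from 8.200 to 8.357 on the log2 scale at 1 h and from 7.677 to 7.999 at 4 h, without overlap. Root cap markers (12.194 to 12.504 against 12.001 to 12.366), epidermis markers (10.216 to 10.352 against 9.991 to 10.295) and vascular markers (10.134 to 10.290 against 9.973 to 10.170) overlapped between the times. Relative to the 1 h mean, the median epidermis marker lay at -0.28 and -0.17 on 4 h replicates 1 and 2 and at -0.00 on replicate 3, and the median root cap marker at -0.30, -0.42 and 0.06. RHD2, an oxidase of growing root hairs, had 7.22, 7.76 and 8.14 at 4 h against 8.27, 8.54 and 8.51 at 1 h, a difference of -0.73 ± 0.20 (limma adjusted p = 0.0782). As for MAN7, RCI3 and EXPA8, replicate 3 was the highest of its 4 h arrays. The part of these markers in the falls of cell wall genes and of SIM and CCS52A1 was not tested. The endodermis genes ESB1 and CASP5 differed by -0.53 ± 0.14 and -0.47 ± 0.16 from levels of 5.46 to 5.65 and 4.07 to 4.22.

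Photosynthesis genes lay on the other side of 0. All 6 measured had a difference above 0, with a median of 0.18 and none called, and their summed signal ranged from 7.31 to 7.42 at 1 h and from 7.56 to 7.84 at 4 h, without overlap. LHCA1 was highest on 4 h replicate 1 (5.90, against 4.98 and 5.50 on replicates 2 and 3). The poly-A control RNAs also had their highest signal on that array, where their log2 levels averaged 8.79; elsewhere the average was 6.16 to 6.66. Actin probe sets at the 3' end exceeded those at the 5' end by 1.37 there, and by 1.08 to 1.25 elsewhere, and the median level of 78 mitochondrial loci was 4.10, against 3.82 to 3.98. Replicate 1 also stood highest at 4 h for the G2/M, ribosome biogenesis and indole glucosinolate lists, and the part of the array's quality in those values was not tested. Without 4 h replicate 1 the median of the indole glucosinolate list was 0.15, as it was without 1 h replicate 1 or 4 h replicate 3.

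**Figure D5:**
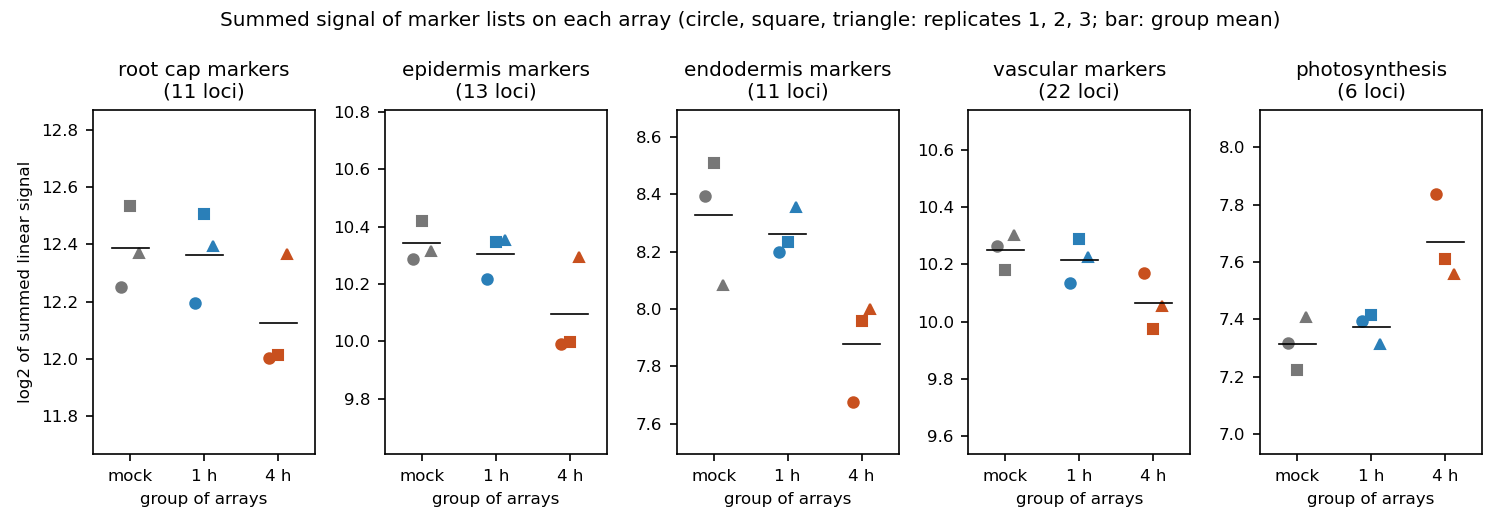
Log2 of the summed linear signal (y axis) of 5 marker lists on each array of mock, 1 h and 4 h (x axis), with circles, squares and triangles for replicates 1, 2 and 3 and a bar at each group mean. The endodermis list lies at 7.677 to 7.999 on the 4 h arrays, below its 1 h range of 8.200 to 8.357, and the photosynthesis list lies above its 1 h range.

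Lists that follow time of day and handling held no called gene. Since 1.85% of all loci were called, the lack of a call in lists this short says little. None of 15 measured clock genes passed the test, though 14 of them had a difference above 0 and their median was 0.19. Without 4 h replicate 1 the median was 0.08 and 12 differences were above 0, and without 1 h replicate 3 the median was 0.09. CHE, a clock transcription factor, had 6.02, 6.10 and 5.90 at 1 h and 6.40, 6.26 and 6.34 at 4 h, a difference of 0.33 ± 0.09 (limma adjusted p = 0.0823). RVE8 lay below the lower quartile of every array, at 2.56 to 2.73 and 2.71 to 2.88. None of 11 measured genes of wounding, heat and touch was called, with a median of -0.04. WRKY33 differed by -0.31 ± 0.18 and TCH2 by -0.20 ± 0.14.

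Whether the steps differed was tested as the signed step from 1 h to 4 h minus that from mock to 1 h. It is 0 when the 1 h mean lies midway, and its sign alone does not tell which step was larger. PIN3, with a first step of 0.41 and a second of -0.58, had -0.99 ± 0.26. limma called 0 of 21430 loci (0%), with a smallest adjusted p of 0.241. At an unadjusted p under 0.05, 606 loci (2.83%) were positive and 677 (3.16%) negative. For EXPA10 this quantity was -1.26 ± 0.16 and for ARF19 -0.90 ± 0.14, since both lay near mock at 1 h. For MLS it was 0.03 ± 0.18 and for GH3.3 -0.05 ± 0.37, since the steps were alike in size. For CYP79B3, CYP79B2 and RGL3 it was -0.26 ± 0.31, -0.34 ± 0.24 and -0.36 ± 0.22, the first step being somewhat larger than the second. With no call among all loci, these values describe the genes and do not set them apart.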

How the data were processed

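The deposited values are on the log2 scale, 1 per probe set and array, and were computed by the authors using RMA, per the submitters' processing notes, which list limma 3.24.15 as well. Array type, probe set definition and genome build were not given in the sources used here. Of 21494 probe sets 64 were controls; the others carried 1 locus each as their name. RefSeq's TAIR10.1 gene table held 21231 of the 21430 loci and gave their symbols; probes shared by close relatives in a family cannot be recognised.

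One limma 3.58.1 model (R 4.3.3) with a mean per group was fitted to the deposited values of all 9 arrays, with 6 residual and 4.47 prior degrees of freedom, tested two-sided and adjusted by Benjamini-Hochberg over 21430 loci. The model was also run on simulated data with the same spread in every group. The measured spread was larger at 4 h, so that run does not bear on how stable the calls are. Precision is set by the number of arrays: the median standard error was 0.108, and the median SD over loci was 0.10 at 1 h and 0.145 at 4 h.

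The comparison, the 29 gene lists (519 loci, 477 measured) and the naming rule were chosen with earlier results of these data known. Named were, among called loci whose arrays did not overlap, the 12 largest rises and falls and the 4 of each with the smallest p; up to 4 called and 2 uncalled members per list, by p; and PLT1, PLT2, WOX5 and GH3.3. SCR, AGL42, EXPA17, AUR3, CDKB2;1, NRPA1, AT3G50630 and the families of the closing section were chosen after their values were seen. Values of 1 h against mock share the 1 h arrays with the comparison. Alternatives changed the normalization, the dim probe set filter (40th percentile of mean level), the variance model, array weights, the arrays fitted, the block and the minimum fold change, or left out 1 array. Same-numbered 1 h and 4 h arrays deviated from their group means with correlations of 0.12, -0.13 and 0.27, and the numbers were not taken as pairs. So few correlations cannot exclude that same-numbered arrays were handled together, and the labels do not say.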

Additional observations from a re-analysis of the deposited data

Results flagged for a closer look

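The 24 poly-A control probe sets, which read RNAs added during sample preparation and enter no comparison, had a mean log2 level of 8.79 on 4 h replicate 1. On the other 8 arrays the mean lay between 6.16 and 6.66, mock arrays included. The signal drew attention because it stood above the level in the mock arrays in data outside the comparison. On the same array 5S ribosomal RNA had a level of 5.63, against 4.59 to 5.04 on the others. Groups of 3 arrays are too small for a test of single outlying arrays, and none was made.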

How the results depend on the processing

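The count of 190 loci called higher and 207 lower was 700 and 999 with array weights, 1 and 3 with only the 1 h and 4 h arrays fitted, and 6 and 30 with a minimum absolute log2 fold change of 1. Leaving out 1 array gave between 1 and 1202 loci higher and between 2 and 1606 lower. Quantile normalization (199 and 181), centring (182 and 201), leaving out dim probe sets (283 and 301) and trend with robust eBayes (236 and 273) stayed within 1.5 times of the main counts. With the replicate number as a block the counts were 170 and 252, and 292 of these 422 loci were also called without the block. The labels do not say whether the numbers pair arrays across groups. Among members of the 29 lists, the 19 called higher and 16 called lower became 43 and 31 with array weights, 1 and 2 with the 1 h and 4 h arrays alone, and 2 and 6 with the minimum fold change. Leaving out 1 array gave 1 to 62 and 1 to 48. The difference between steps was called for 0 loci except 1 with array weights; it had no value with the 1 h and 4 h arrays alone, and leaving out 1 array gave 0 in each case. The cause of these shifts was not tested. Of the 110 genes that the naming rule picked, none of the 51 called ones changed direction under any of these alternatives. Their 4 h and 1 h arrays did not overlap, so leaving out 1 array could not have reversed a direction. Several other settings left the differences of group means unchanged, so the lack of reversals is no sign of stability. Of these 51, only EXPA10, ARF19 and MLS passed whichever array was left out. UTR1, UGT85A1, AT4G28410 and AT3G58540 passed in 7 of the 9 fits that left out 1 array. Many others passed in only 1 of the 9, the fit without 4 h replicate 3. Among these were CCS52A1, EXPA1, EXPA8, EXLA2, RRP5, APUM24, RID2, NRPA2, CDT1A, GASA4, TMO5, SK2, MAN7, RCI3 and AT5G56040. List medians near 0 give no direction: those of the glyoxylate, cytokinin, gibberellin, wound, PLETHORA, niche and embryo and shoot lists changed sign when some single arrays were left out. A planned description of promoter motifs was not run, since no promoter sequences were used here. Signal over background could not be judged, since only summarised probe sets were used.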

Other observations

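Some further gene families were looked at after their values were seen, so their counts are descriptions without a test. They include loci already described, namely NRPA1, NRPA2, UTR1 and ARF19, and RPL4 is counted both as plastid ribosomal and as embryo-defective. Over all loci, 0.887% were called higher and 0.966% lower. Among 9 measured protein arginine methyltransferases, 5 were called higher (PRMT10, PRMT1A, PRMT11, PRMT3 and PRMT4B) and all 9 had a difference above 0, with a median log2 fold change of 0.41. PRMT11 had levels of 9.74, 9.67 and 9.62 at 1 h and 10.20, 10.15 and 10.12 at 4 h, and rose by 0.48 ± 0.07 (limma adjusted p = 0.0247). Of 24 subunits of the nuclear RNA polymerases, 4 were called higher (NRPA1, NRPA2, ATRPAC42 and NRPE7) and 22 had a difference above 0. All 15 measured plastid ribosomal proteins had one too, with a median of 0.28 that was 0.14 without 4 h replicate 1, and RPL4 and PSRP2 were called. Among 237 genes whose RefSeq names or synonyms class them as embryo-defective, 8 (3.38%) were called higher and 1 (0.422%) lower, the latter being EMB3141 at -0.75 ± 0.13.

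Genes that make and move nucleotide sugars, the building blocks of cell wall polysaccharides, were mostly lower at 4 h. Of 17 measured nucleotide sugar transporters 16 had a difference below 0, with a median of -0.47, and UTR1 and UTR3 were called. UTR3 had 8.95, 9.09 and 9.11 at 1 h and 8.38, 8.24 and 8.57 at 4 h. Of 27 genes of nucleotide sugar synthesis 22 had a difference below 0, with a median of -0.36, and 4 were called lower: RHM3 at -0.66 ± 0.08, MUM4, a rhamnose synthase gene, at -0.81 ± 0.15, UDG4 at -0.63 ± 0.12 and GER2 at -0.52 ± 0.11. Among 24 galacturonosyltransferases 22 were below 0 and GAUT14 was called, at -0.79 ± 0.15. The beta-galactosidases BGAL4 and MUM2 fell by 1.21 ± 0.22 and 1.03 ± 0.20, the tubulins TUB6 and TUB8 by 0.63 ± 0.11 and 0.68 ± 0.14, and the aquaporins PIP1A and GAMMA-TIP by 0.74 ± 0.14 and 0.90 ± 0.17. They were the called members among 16 beta-galactosidases, 11 tubulins and 24 aquaporins measured, of which 4, 2 and 5 had a difference above 0. The medians were -0.12, -0.22 and -0.13, and that of the aquaporins was -0.03 without 4 h replicate 1. In each of these families no measured member was called higher. Of 19 measured auxin response factors, ARF19 alone was called, and the family's median was -0.03.

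Among 15864 pairs of neighbouring loci that were both measured, 8 had both members called, 4 in the same direction and 4 in opposite directions. The pairs with the same direction were AT3G48450 and AT3G48460, both higher, and AT2G43880 with AT2G43890, AT1G12845 with AT1G12850, and AT1G32090 with PRR1, all lower.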
